A study of Fukomys damarensis and Heterocephalus glaber and Mus musculus with 160 samples.

Results

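CEBPA binding was mapped by chromatin immunoprecipitation and sequencing (ChIP-seq) in livers of the naked mole-rat, a subterranean African rodent labelled NMR, and of a related species, the Damaraland mole-rat, labelled DMR. The 4 libraries whose labels name liver and CEBPA were taken out of the 160 samples of the series, 1 each from animals NMR30, NMR35, DMR1 and DMR4. Each library has its own list of peaks, regions where crosslinked DNA pulled down with the CEBPA antibody sc-9314 exceeded input chromatin, and the 4 lists hold 324922 peaks. All 4 animals were wild-type adult males. NMR30 was 13 months old, NMR35 was 15 months old, and DMR1 and DMR4 were each estimated at 48 months. Species, age and genome assembly changed together in this design, so their parts in any difference cannot be told apart. The input was whole liver, in which a site bound in fewer cells and a site bound more weakly in each cell cannot be told apart. Histone marks of the same livers and of further animals, and lists for FOXA1, RXRA and HNF4A, served for comparison. The further livers with histone lists came from NMR31 (14 months), NMR32 and NMR34 (17 months each), DMR2 and DMR3 (each estimated at 36 months) and DMR6 (estimated at 48 months), all wild-type adults. All of these were male except DMR6, a female. Heart histone lists also included DMR11, a male estimated at 48 months.

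CEBPA is a basic leucine zipper transcription factor that binds DNA as a dimer and is abundant in hepatocytes, the main cell type of the liver. It is known for maintaining hepatocyte identity and for driving genes of gluconeogenesis, lipid handling, urea synthesis and serum protein secretion. FOXA1, HNF4A and RXRA are other liver transcription factors: a forkhead factor that can open compacted chromatin, a nuclear receptor central to hepatocyte differentiation, and the common dimer partner of many nuclear receptors. Among the histone marks, H3K4me3 is found at promoters, H3K27ac at promoters and enhancers in use, and H3K4me1 at enhancers both in use and held ready.

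The naked mole-rat livers gave more CEBPA peaks, but the Damaraland livers differed from each other by about as much as the species means did. NMR30 gave 122941 peaks, NMR35 84760, DMR1 41372 and DMR4 75849. Both naked mole-rat lists were longer than both Damaraland lists, with a mean of 103851 ± 26998 peaks against 58610.5 ± 24379 (SD, n = 2 each). The log2 ratio of the species was 0.87, and its two-sided exact permutation p was 0.333, the lowest value possible with 2 libraries a species. It was 0.43 without DMR1, 1.30 without DMR4 and 0.50 on scaffolds reaching 1 Mb. The lists give no read numbers, so sequencing depth, which raises the number of peaks past a fixed threshold, is unknown.

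Peak strength placed DMR4 apart from the other 3 lists. The median fold over input (the authors' value for each peak) was 4.53 in NMR30, 4.67 in NMR35, 4.44 in DMR1 and 6.08 in DMR4. The upper quartile of the fold was 6.09, 6.31 and 5.75 in the first 3 and 11.7 in DMR4. The species means of the median fold were 4.60 ± 0.10 in the naked mole-rat and 5.26 ± 1.16 in the Damaraland mole-rat (SD, n = 2 each), the log2 ratio was -0.18 and the two-sided exact permutation p was 1. The lists interleave, and without DMR4 the log2 ratio was 0.051.

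Width followed the same order within each species. Median widths were 323 bases in NMR30, 351 in NMR35, 301 in DMR1 and 387 in DMR4. Each list has a floor, the narrowest width present, and between 23.9% of peaks (DMR4) and 44.3% (NMR30) lay exactly on it. The floors were 291, 297, 272 and 250 bases in the order NMR30, NMR35, DMR1 and DMR4, so much of the median is set near the floor. The species differed by a log2 ratio of -0.020 (two-sided exact permutation p = 1), and the sign turned when NMR30 or DMR4 was left out.

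Ranking the peaks by the authors' −log10 p-value and cutting each list into 10 equal deciles showed how steeply these properties fell. In the strongest decile, median folds were 19.6 in NMR30, 18.9 in NMR35, 10.8 in DMR1 and 35.7 in DMR4. In the weakest decile they had converged to between 3.02 and 3.31. Median width in the strongest decile was 754, 731, 540 and 772 bases in the same order. From the sixth decile on, the median width of NMR30, NMR35 and DMR1 was the floor itself, while DMR4 reached its floor at the eighth decile.

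**Figure D1:**
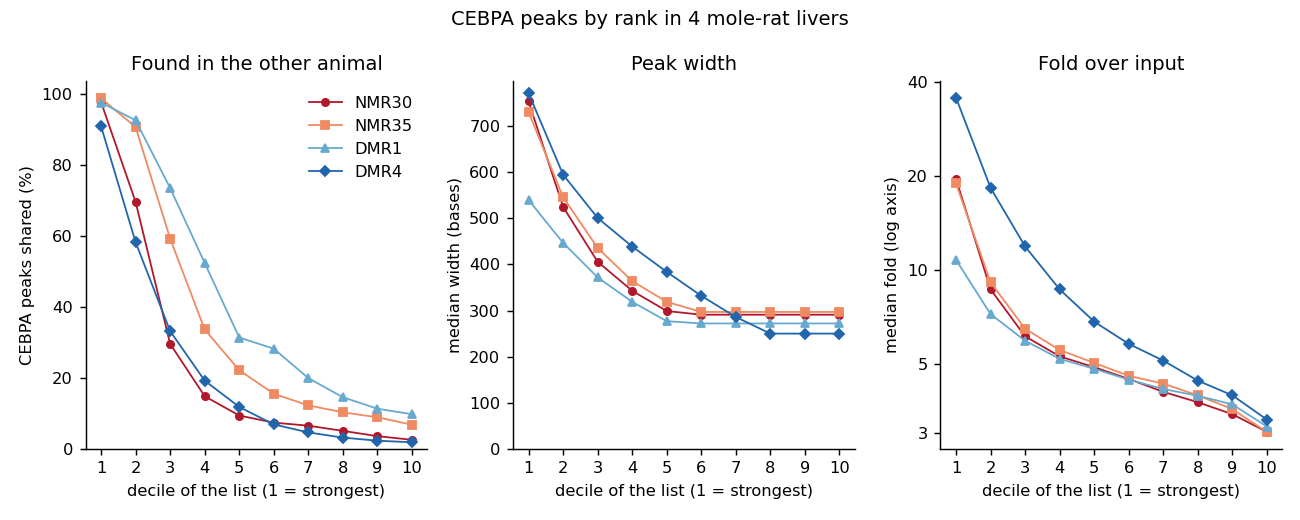
Share of CEBPA peaks found in the other animal of the species (left, %), median peak width (middle, bases) and median fold over input (right, log axis) by decile of each list, with decile 1 the strongest by −log10 p-value. Each line is 1 library; all 3 properties fall with rank, and DMR4 keeps the highest fold in every decile.

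Strong CEBPA peaks recurred in the second animal and weak ones rarely did. A peak counted as shared when it overlapped a peak of the other animal over at least 50% of the shorter of the pair. In the strongest decile, 97.7% of NMR30 peaks, 98.8% of NMR35 peaks, 97.6% of DMR1 peaks and 90.9% of DMR4 peaks were shared. In the weakest decile the shares were 2.53%, 6.80%, 9.74% and 1.83%. The fall came earliest in the longer list of each species, NMR30 and DMR4.

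Over whole lists, 24.6% of NMR30 peaks were found in NMR35 and 35.8% the other way. In the Damaraland mole-rat, 43.1% of DMR1 peaks were found in DMR4 and 23.2% the other way. The mean over a species was 30.2 ± 7.92% in the naked mole-rat and 33.1 ± 14.1% in the Damaraland mole-rat (SD, n = 2 each), a difference of -2.94 percentage points with a two-sided exact permutation p of 1. Both directions of a species come from 1 pair of lists, so the values within a species are not independent.

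The direction of that comparison turned when lists of equal length were used. Among the 41372 strongest peaks of each library, 54.2% of NMR30 and 54.4% of NMR35 peaks were shared, against 40.3% of DMR1 and 39.7% of DMR4 peaks. The difference was then 14.3 percentage points in favour of the naked mole-rat (two-sided exact permutation p = 0.333, the smallest possible). The gap varied with the number of peaks compared. Of the 1000 strongest peaks of one animal, 73.6% (NMR30) and 73.8% (NMR35) were among the 1000 strongest of the other, while the Damaraland share was 47.8% in each direction. Among the 100 strongest the shares were 63% and 53%, and among the 5000 strongest 75.8% (NMR30), 75.9% (NMR35), 61.8% (DMR1) and 61.3% (DMR4).

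At the top, the Damaraland livers differed in the order of their peaks and little in their presence. Of the 1000 strongest DMR1 peaks, 97.9% had a peak somewhere in the DMR4 list, and of the 1000 strongest DMR4 peaks 99.9% had one in DMR1. The shared peaks among the top 1000 of DMR1 had a median rank of 1064 in DMR4, and those of DMR4 had a median rank of 1141.5 in DMR1. The corresponding ranks in the naked mole-rat were 561 for NMR30 peaks in NMR35 and 577.5 for NMR35 peaks in NMR30. Across shared peaks, Spearman's rho of the −log10 p-value was 0.76 in the naked mole-rat (30246 peaks) and 0.56 in the Damaraland mole-rat (17830 peaks), given as a description because peaks are not replicates.

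Where both animals had a peak, its position was nearly the same. The overlap required of a shared peak limits how far apart the positions can be. The summits, the base of highest signal in a peak, lay a median of 43 bases apart in the naked mole-rat and 40 bases apart in the Damaraland mole-rat. Summits within 100 bases of each other made up 77.3% and 78.6% of shared peaks. The fold at shared peaks differed between animals far more in 1 species than in the other. It was a median log2 ratio of 1.64 higher in DMR4 than in DMR1, and the log2 ratio of NMR35 over NMR30 was -0.28.

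CEBPA summits were then placed in the liver histone mark regions of the same species. A region of a mark was the union of peaks that overlapped a peak of at least 1 further animal. The marks came from 5 naked mole-rats each, from 5 Damaraland mole-rats for H3K27ac and H3K4me1, and from 2 for H3K4me3. In the naked mole-rat, H3K4me3 regions covered 1.16% of the scaffold length reached by peaks, H3K27ac regions 3.22% and H3K4me1 regions 5.56%. The same marks covered 1.13%, 4.36% and 7.58% in the Damaraland mole-rat.

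A larger share of CEBPA summits lay in active chromatin in the Damaraland lists. The share in H3K27ac regions was 16.1% in NMR30 (95% Wilson interval 15.9 to 16.3), 18.5% in NMR35 (18.3 to 18.8), 26.1% in DMR1 (25.7 to 26.5) and 34.7% in DMR4 (34.4 to 35.1). These intervals cover counting error only. Both Damaraland libraries were higher, and the means were 17.3 ± 1.74% and 30.4 ± 6.11% (SD, n = 2 each), a difference of -13.1 percentage points with the smallest possible two-sided exact permutation p of 0.333. With the 41372 strongest peaks of each library the difference was -4.76 percentage points and the species overlapped (exact permutation p = 1). H3K27ac regions also covered more sequence in the Damaraland mole-rat. Relative to covered length, the summits were 4.99 and 5.75 times as frequent in NMR30 and NMR35, 5.98 times in DMR1 and 7.96 times in DMR4.

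H3K4me1, the mark of enhancers, held the most CEBPA summits in every library. The shares were 21.8% in NMR30, 24.1% in NMR35, 28.8% in DMR1 and 45.1% in DMR4. The means were 23.0 ± 1.61% in the naked mole-rat and 37.0 ± 11.6% in the Damaraland mole-rat (SD, n = 2 each), a difference of -14.0 percentage points (two-sided exact permutation p = 0.333, the smallest possible). It narrowed to -2.86 percentage points with equal list lengths, to -5.84 without DMR4 and to -8.70 with the H3K4me1 peaks of the same animal alone, and it was -22.2 without DMR1. H3K4me1 regions also covered the most sequence. Relative to covered length, summits in them were 3.92, 4.33, 3.80 and 5.95 times as frequent in NMR30, NMR35, DMR1 and DMR4. This was the lowest of the 3 marks in every library.

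H3K4me3, the promoter mark, held few summits and did not separate the species. The shares were 5.67% in NMR30, 6.09% in NMR35, 4.47% in DMR1 and 7.26% in DMR4. The difference of the means was 0.013 percentage points (two-sided exact permutation p = 1), and it turned negative under several settings. With equal list lengths both naked mole-rat libraries were higher, by 3.54 percentage points (exact permutation p = 0.333, the smallest possible). Relative to the small covered length, summits in H3K4me3 regions were 4.89, 5.25, 3.96 and 6.42 times as frequent in NMR30, NMR35, DMR1 and DMR4.

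The share in H3K27ac regions fell along the ranks in all 4 livers. It went from 47.6% in the strongest decile to 3.95% in the weakest in NMR30, from 48.6% to 5.42% in NMR35, from 52.0% to 8.73% in DMR1 and from 60.2% to 12.5% in DMR4. The mean fall was 44.4 ± 2.15 percentage points (SD, n = 4), present in 4 of 4 libraries, with a two-sided exact sign-flip permutation p of 0.125, the smallest that 4 libraries allow. The size of the fall was alike in the species, 43.4 ± 0.36 and 45.5 ± 3.10 percentage points (SD, n = 2 each). When each library was set against the H3K27ac peaks of its own animal alone, the fall was 25.1 percentage points.

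DMR4 declined more slowly through the middle ranks. In the fifth decile, 38.7% of DMR4 summits lay in H3K27ac regions, against 20.1% in DMR1, 13.4% in NMR35 and 10.1% in NMR30. Its peaks found in no DMR1 peak still lay in H3K27ac regions in 29.6% of cases. The peaks found in 1 animal only did so in 4.98% of cases in DMR1, 6.27% in NMR35 and 8.20% in NMR30. Peaks found in both animals lay in H3K27ac regions in 54.0% of cases in DMR1, 51.8% in DMR4, 40.5% in NMR35 and 40.2% in NMR30. Within a species these are largely the same regions counted from each list. The closeness of its libraries there follows from that selection, and their values are not independent. Both Damaraland libraries stayed above both naked mole-rat ones.

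**Figure D2:**
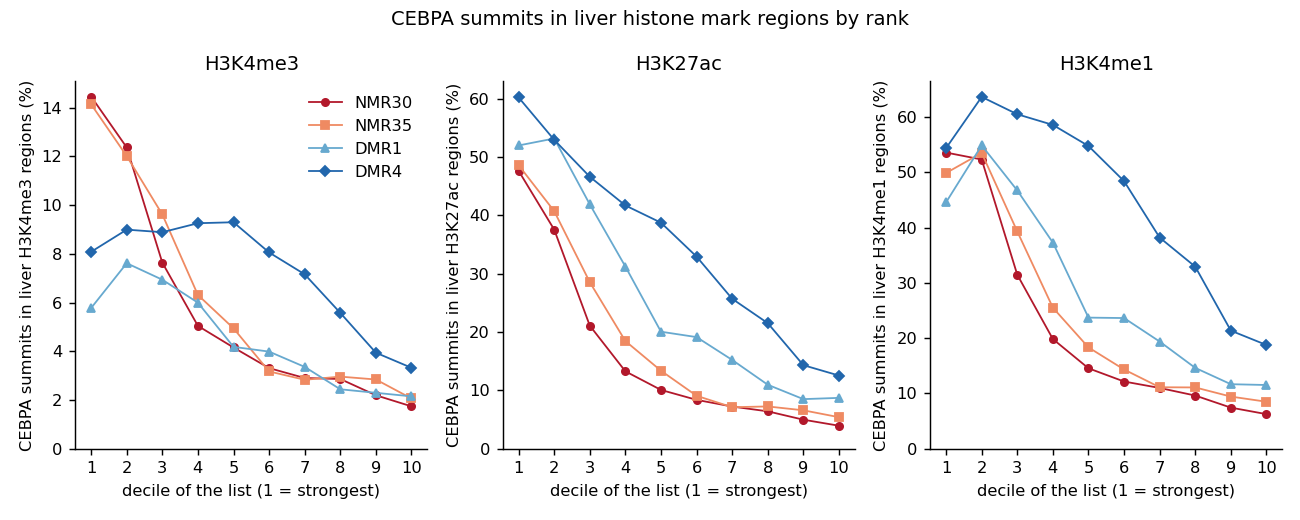
Share of CEBPA summits (%) in liver regions of H3K4me3, H3K27ac and H3K4me1 by decile of each list, with decile 1 the strongest; each line is 1 library and each panel has its own axis from 0. H3K27ac falls from between 47.6% and 60.2% to between 3.95% and 12.5%, and H3K4me1 is higher in the second than in the first decile in NMR35, DMR1 and DMR4.

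The leading mark changed with rank. Among ranks 1 to 5000, H3K27ac held more CEBPA summits than H3K4me1 in all 4 lists, by 1.26 percentage points in NMR30, 2.84 in NMR35, 6.34 in DMR1 and 10.0 in DMR4. Among ranks 5001 to 19000 the order was the opposite. H3K4me1 then led by 12.6 percentage points in NMR30, 10.99 in NMR35, 4.48 in DMR1 and 9.89 in DMR4. The change of order was seen in 4 of 4 libraries at these cuts and was not tested. It depends on the cut in the naked mole-rat. In the strongest decile, H3K4me1 led in NMR30 (53.6% against 47.6%) and NMR35 (49.9% against 48.6%). H3K27ac led there in DMR1 (52.0% against 44.6%) and DMR4 (60.2% against 54.4%).

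For comparison, H3K27ac held more RXRA summits than H3K4me1 at both rank ranges in all 4 RXRA libraries. Among ranks 5001 to 19000 the margin of H3K27ac was 1.82 percentage points in NMR30, 7.20 in NMR35, 3.73 in DMR1 and 4.71 in DMR4. FOXA1 had more summits in H3K4me1 at those ranks in all 4 livers, by between 2.29 and 8.22 percentage points. At ranks 1 to 5000, H3K27ac led for FOXA1 by 7.02 percentage points in DMR1 and 5.46 in DMR4, the same change of order as for CEBPA, while H3K4me1 led by 0.78 in both NMR30 and NMR35. For HNF4A, H3K27ac led at ranks 1 to 5000 by 3.28 percentage points in NMR30, 8.68 in NMR35 and 15.7 in DMR4. At ranks 5001 to 19000 it led by 0.84 in NMR35 and 3.51 in DMR4, and H3K4me1 led by 0.21 in NMR30. At ranks 5001 to 19000, CEBPA had a wider H3K4me1 lead than FOXA1 of the same animal in 4 of 4 animals, which was noticed in the data and not tested. The FOXA1 lists were shorter than the CEBPA lists, with 51630 peaks in NMR30, 43457 in NMR35, 27773 in DMR1 and 19398 in DMR4. These ranks thus reach nearer to the weak end of the FOXA1 lists.

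Combining the marks gave each CEBPA peak 1 class. Peaks with no liver mark at the summit were the commonest class, with 71.5% in NMR30, 68.1% in NMR35, 62.0% in DMR1 and 44.0% in DMR4, so that in DMR4 more peaks had a mark than had none. Primed enhancers, with H3K4me1 alone, held 11.7% of NMR30, 12.6% of NMR35, 11.8% of DMR1 and 20.9% of DMR4 peaks. Active enhancers, with H3K27ac and H3K4me1 but no H3K4me3, held 8.43%, 9.72%, 15.6% and 21.7%. Promoters, with H3K4me3 and H3K27ac, held 4.91%, 5.34%, 4.31% and 6.90%.

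The highest folds were in a small class, summits in H3K27ac without either methylation mark. It held 2.72% of peaks in NMR30, 3.45% in NMR35, 6.13% in DMR1 and 6.12% in DMR4. Its median fold was 9.66, 8.85, 6.44 and 14.3, the highest of the 6 classes in every library. Active enhancers followed with 7.10, 6.68, 5.51 and 8.56, and peaks with no mark had the lowest fold, 4.24, 4.37, 4.12 and 4.69. In this H3K27ac class, between 83.6% (NMR30) and 92.2% (DMR1) of summits lay within 500 bases of an H3K4me1 region.

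Unmarked peaks were also the least often shared between animals. Of these, 11.2% were shared in NMR30, 17.1% in NMR35, 16.7% in DMR1 and 13.2% in DMR4. The H3K27ac class without methylation was the most often shared, at 71.6%, 83.9%, 94.6% and 53.9% in the same order.

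**Figure D3:**
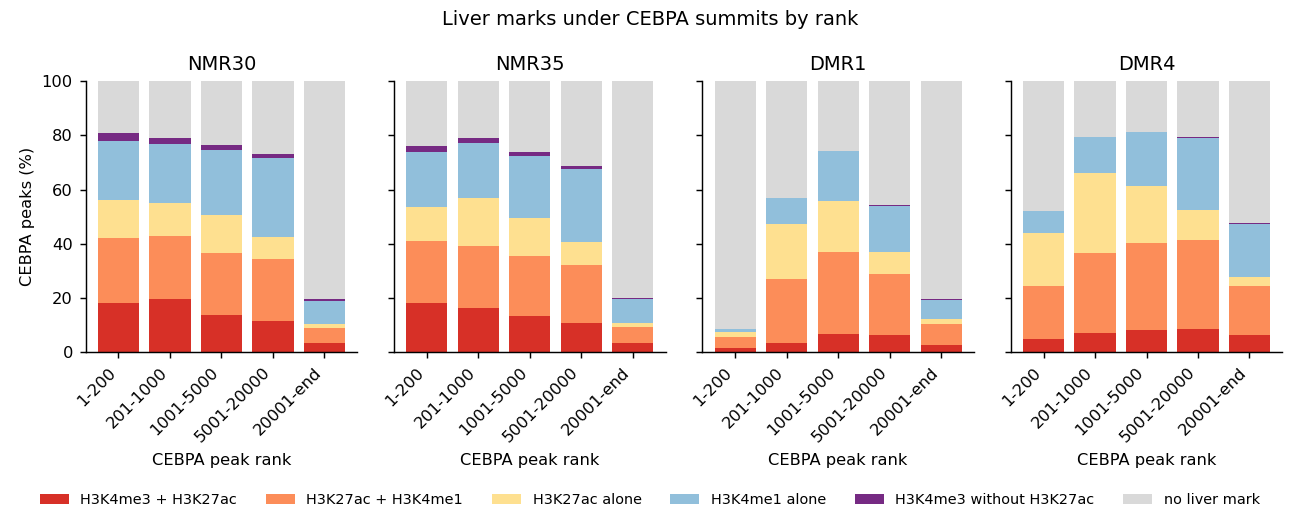
Composition of CEBPA peaks (% of peaks, stacked) by the liver marks at the summit, in 5 rank ranges of each library. Unmarked peaks make up 80.4%, 80.0% and 80.5% of ranks past 20000 in NMR30, NMR35 and DMR1 and 52.5% in DMR4, and also 91.5% of ranks 1 to 200 in DMR1.

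The very strongest Damaraland peaks departed from this order. Among ranks 1 to 200, only 7.50% of DMR1 summits and 44.0% of DMR4 summits lay in H3K27ac regions. In ranks 201 to 1000 the shares were 47.4% and 66.1%. The naked mole-rat lists did not show this: ranks 1 to 200 had 56.0% in NMR30 and 53.5% in NMR35, beside 54.9% and 56.8% in ranks 201 to 1000.

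Many of these peaks lay on short scaffolds, pieces of the assembly on which no peak of any library of the species ended past 10 kb. Of the 200 strongest peaks, 134 in DMR1 and 63 in DMR4 were on such scaffolds, against 4 in NMR30 and 8 in NMR35. Over whole lists the share was 2.83%, 1.50%, 0.57% and 0.72% in the same order. On short scaffolds, 3 of the 134 top DMR1 peaks and 9 of the 63 top DMR4 peaks lay in an H3K27ac region. On longer scaffolds, 12 of 66 did in DMR1 and 79 of 137 in DMR4. These longer scaffolds include many that did not reach 1 Mb. Of the 200 strongest peaks, 14.0% in DMR1 and 59.5% in DMR4 lay on scaffolds reaching 1 Mb, against 89.2% and 91.7% over whole lists.

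The same peaks were found with other antibodies. Among the 200 strongest, 96.0% of DMR1 peaks were shared with both FOXA1 and RXRA of that animal, and 49.5% of DMR4 peaks with FOXA1, RXRA and HNF4A. TBX5, a heart transcription factor mapped in the heart of the female DMR6, had a peak at 39.0% of them in DMR1 and 16.5% in DMR4, and at 5.18% and 4.92% of all CEBPA peaks. In NMR30 and NMR35, 13.0% and 31.0% of the 200 strongest were shared with all 3 other liver factors. Over whole lists, the share with every factor compared was 1.03% in NMR30, 3.43% in NMR35, 8.88% in DMR1 and 5.32% in DMR4, so it was higher at the top in all 4. The highest ranks of the FOXA1, RXRA and HNF4A lists of DMR1 and DMR4 were alike in this, with between 56 and 129 of the 200 strongest peaks on short scaffolds. The part of the short scaffolds in these values was not tested further. Leaving them out, a choice made after seeing the data, moved the species differences by at most 0.42 percentage points or 0.022 in log2 ratio.

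CEBPA summits lay nearer to H3K27ac in the Damaraland livers. For each CEBPA summit, the nearest summit of a mark in the same animal was found, leaving out the 0.51% to 7.19% of CEBPA peaks on scaffolds with none. The median distance to H3K27ac was 23937 bases in NMR30, 12150.5 in NMR35, 10458 in DMR1 and 2319.5 in DMR4. Both Damaraland livers had shorter distances, with means of 6389 ± 5755 against 18044 ± 8334 bases (SD, n = 2 each). The log2 ratio was 1.79 with the smallest possible two-sided exact permutation p of 0.333. It was 0.71 without DMR4, 2.88 without DMR1 and 3.18 with a −log10 q of at least 4. Among the 41372 strongest peaks the ratio turned to -0.55 (exact permutation p = 1).

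Among strong peaks the livers were nearly level. In the strongest decile the median distance to H3K27ac was 377 bases in NMR30, 357 in NMR35, 339 in DMR1 and 320 in DMR4. In the weakest decile it was 53445, 30836, 40781 and 26278 bases. The numbers of H3K27ac peaks behind these values were 87316, 131043, 114466 and 110329 in the same order, and cutting all 4 to 87316 left a log2 ratio of 1.59.

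H3K4me1 was nearer than H3K27ac over whole lists but farther at the top. Its median distance was 6876 bases in NMR30, 6983 in NMR35, 4346 in DMR1 and 775 in DMR4. In the strongest decile it was 444.5, 448, 473 and 404 bases, longer than to H3K27ac in all 4. H3K4me3 was far away, 33465.5 bases in NMR35, 43719 in DMR1 and 30381 in DMR4. The 2959 bases in NMR30 came with an H3K4me3 list of 253457 peaks, while the other H3K4me3 lists of these animals held between 28820 and 42267.

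Summits of H3K27ac and H3K4me1 were sparse at the strongest CEBPA summits themselves and dense beside them. Around CEBPA ranks 1 to 5000, the number of H3K27ac summits per 100 CEBPA peaks in a 100-base step (mean of both sides) was highest at 14.8 in NMR30, 14.8 in NMR35, 14.3 in DMR1 and 18.8 in DMR4. This maximum was 200 to 299 bases away in NMR30, DMR1 and DMR4 and 300 to 399 bases away in NMR35. Within the first 100 bases the values were 1.30, 1.30, 0.81 and 0.51, and at the far end, up to 2999 bases away, they were 1.81, 2.48, 1.98 and 2.30. The dip was thus below the level far from the peak in all 4 livers.

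H3K4me1 summits were densest 300 to 399 bases from the CEBPA summit in all 4 libraries, one step farther out than H3K27ac in NMR30, DMR1 and DMR4 and at the same step in NMR35. The heights were 9.82 in NMR30, 12.02 in NMR35, 10.3 in DMR1 and 16.6 in DMR4, and the first 100 bases held 2.04, 0.91, 0.73 and 0.35. For H3K4me3 the first 100 bases held 1.68, 0.77, 0.33 and 0.20 summits, against 1.35, 0.71, 0.37 and 0.46 at the far end, so NMR30 and NMR35 had no dip below the far level. Past rank 20000 the H3K27ac maximum was 1.56, 2.00 and 1.90 in NMR30, NMR35 and DMR1 and 4.75 in DMR4. The first 100 bases then held 0.94, 1.31, 1.01 and 1.75, above the 0.49, 0.68, 0.57 and 1.16 at the far end in all 4.

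**Figure D4:**
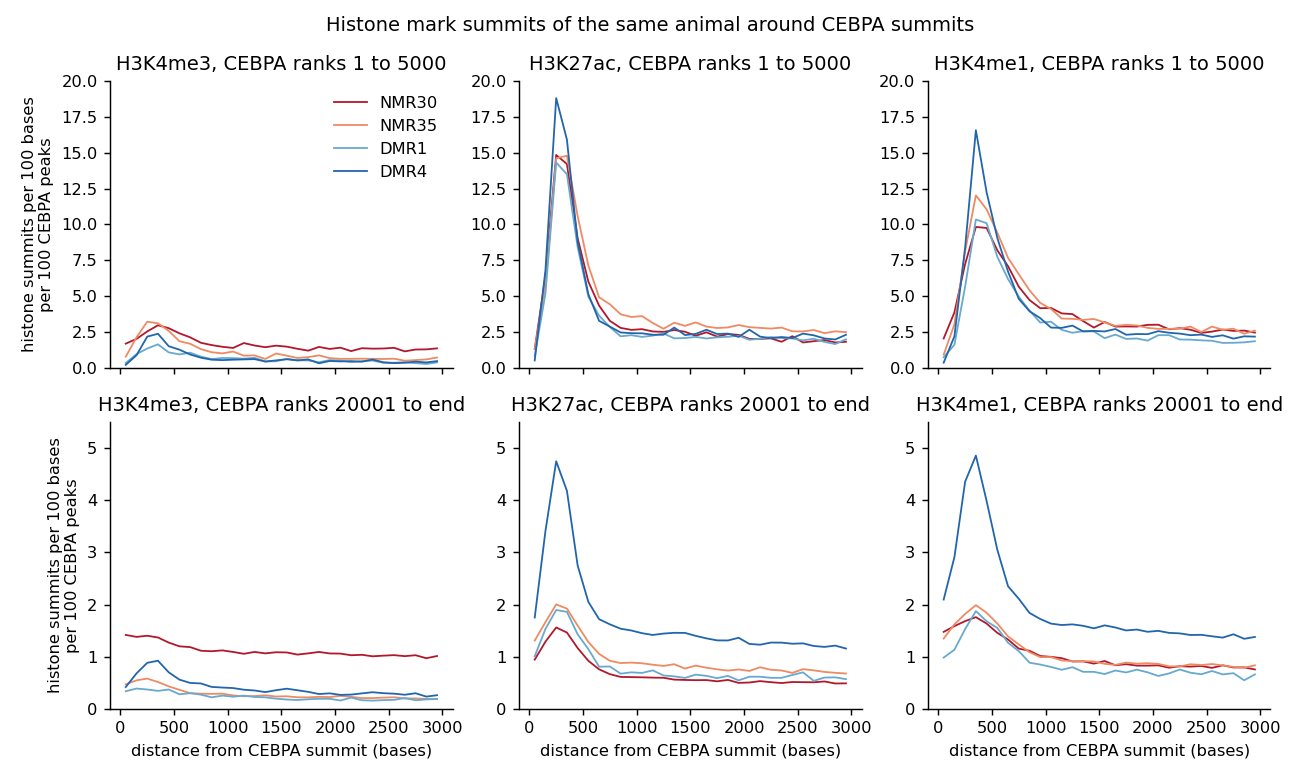
Summits of H3K4me3, H3K27ac and H3K4me1 peaks of the same animal per 100 CEBPA peaks in 100-base steps of distance from the CEBPA summit (mean of both sides), for CEBPA ranks 1 to 5000 (top, axis to 20) and past 20000 (bottom, axis to 5.5). Each line is 1 library; H3K27ac is highest 200 to 399 bases away, falls below the far level at the CEBPA summit in the top row but not in the bottom row, and DMR4 has the highest maximum for H3K27ac and H3K4me1.

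From the side of the marks, CEBPA occupied the strongest regions most often. Of each animal's own H3K27ac peaks, 12.9% held a CEBPA summit in NMR30, 7.83% in NMR35, 6.44% in DMR1 and 14.0% in DMR4. In the strongest decile of the H3K27ac peaks the shares were 40.8%, 31.3%, 26.99% and 49.3%, and in the weakest decile 2.87%, 1.67%, 0.90% and 2.59%. Strong H3K27ac peaks are also wider, so the density is given too. It went from 3.11 to 1.16 CEBPA summits per 10 kb in NMR30, from 2.32 to 0.79 in NMR35, from 1.43 to 0.38 in DMR1 and from 3.16 to 1.08 in DMR4. The CEBPA lists differ in length. When only the 5000 strongest CEBPA peaks of each library were counted, the share of all H3K27ac peaks was more even. It was 1.56% in NMR30, 1.12% in NMR35, 1.46% in DMR1 and 1.54% in DMR4.

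For H3K27ac, the histone list of the matching animal did not give the highest share. CEBPA summits of DMR4 lay in H3K27ac peaks of DMR4 itself in 23.8% of cases, and in those of DMR2 in 30.3%. For DMR1 the own list gave 19.3% and DMR2 again the most, 22.7%. NMR30 had 9.93% in its own list and 12.3% in that of NMR31, and NMR35 had 12.9% in its own and 14.0% in that of NMR31. For H3K4me3, the same list gave the most in both animals of a species. In the naked mole-rat it was the NMR30 list, which held 253457 peaks. NMR30 had 6.67% in it and at most 5.06% in the others, and NMR35 had 6.61% in it and 5.28% in its own. In the Damaraland mole-rat it was the DMR4 list. DMR4 had 7.86% in it and 4.65% in that of DMR1, and DMR1 had 4.87% in it and 2.96% in its own.

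No gene could be assigned to a peak, so the liver label was set against heart chromatin of the same species. Heart H3K27ac lists came from NMR31, NMR32, NMR35, DMR1 to DMR4 and DMR11. The regions cover 3.05% of scaffold length in the naked mole-rat and 4.35% in the Damaraland mole-rat, close to the liver. CEBPA summits lay in liver H3K27ac regions 1.88 times as often as in heart ones in NMR30, 1.99 times in NMR35, 2.72 times in DMR1 and 2.40 times in DMR4. Of summits in liver H3K27ac regions, 37.1%, 36.1%, 28.8% and 32.9% were also in a heart H3K27ac region. The excess of liver over heart peaked at ranks 5001 to 20000 in NMR30 and NMR35, at 2.45 and 2.40 times, and at ranks 201 to 1000 in DMR1, at 5.26 times. In DMR4 it was highest at ranks 1 to 200, at 4.63 times.

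CEBPA peaks shared with other liver factors were more often in active chromatin. In NMR30, 86.6% of CEBPA peaks had no FOXA1, RXRA or HNF4A peak of that animal, in NMR35 74.9% and in DMR4 61.7%. In DMR1, for which only FOXA1 and RXRA were compared, 76.7% had neither. RXRA was the commonest partner in DMR4, at 33.9% of CEBPA peaks, and in DMR1, at 17.2%. In NMR35, FOXA1 and RXRA were level at 14.0% and 14.1%, and in NMR30 FOXA1 led with 7.97% against 6.04%. The RXRA and FOXA1 lists held 53184 and 19398 peaks in DMR4 and 40759 and 27773 in DMR1. They held 52725 and 43457 in NMR35 and 26218 and 51630 in NMR30. HNF4A lists were longer than RXRA lists, with 47577 peaks in NMR30, 66444 in NMR35 and 62990 in DMR4. HNF4A was shared less often than RXRA there, at 3.58%, 10.0% and 17.6%. The part of list length in these shares was not tested.

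The share of CEBPA summits in H3K27ac regions rose with the number of partners and was lower again with the most. It was 12.6% with none, 36.5% with 1, 50.3% with 2 and 32.8% with 3 in NMR30. In NMR35 it was 10.2%, 39.0%, 54.9% and 42.9%, and in DMR4 17.5%, 56.4%, 71.4% and 62.4%. In DMR1 it was 17.1% with none, 59.8% with 1 and 48.7% with both. Because partners were more frequent at strong peaks, ranks 5001 to 20000 were also taken alone. There the values were 38.0%, 52.2%, 61.7% and 41.9% in NMR30, 31.7%, 46.8%, 56.4% and 39.0% in NMR35, 26.9%, 61.7% and 55.7% in DMR1, and 31.1%, 55.9%, 71.7% and 66.2% in DMR4. The last step was downward in 4 of 4 libraries in both views. Over 5 rank ranges in 4 libraries it was downward in 16 of 20 cases and upward in 4: ranks 1 to 200 of NMR30 (62.2% to 65.4%) and NMR35 (53.9% to 62.9%), ranks 201 to 1000 of NMR30 (57.0% to 61.5%) and ranks past 20000 of DMR1 (49.5% to 57.3%). None of these steps was tested. Peaks on short scaffolds were more often shared with every factor compared, at 3.57% in NMR30, 9.80% in NMR35, 58.2% in DMR1 and 41.6% in DMR4. On longer scaffolds the shares were 1.02%, 3.39%, 7.44% and 4.77%. Of the peaks on short scaffolds, 15.0%, 12.4%, 7.94% and 15.5% lay in H3K27ac regions, against 16.1%, 18.6%, 26.6% and 35.0% on longer ones. The part of the short scaffolds in the last step was not tested.

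**Figure D5:**
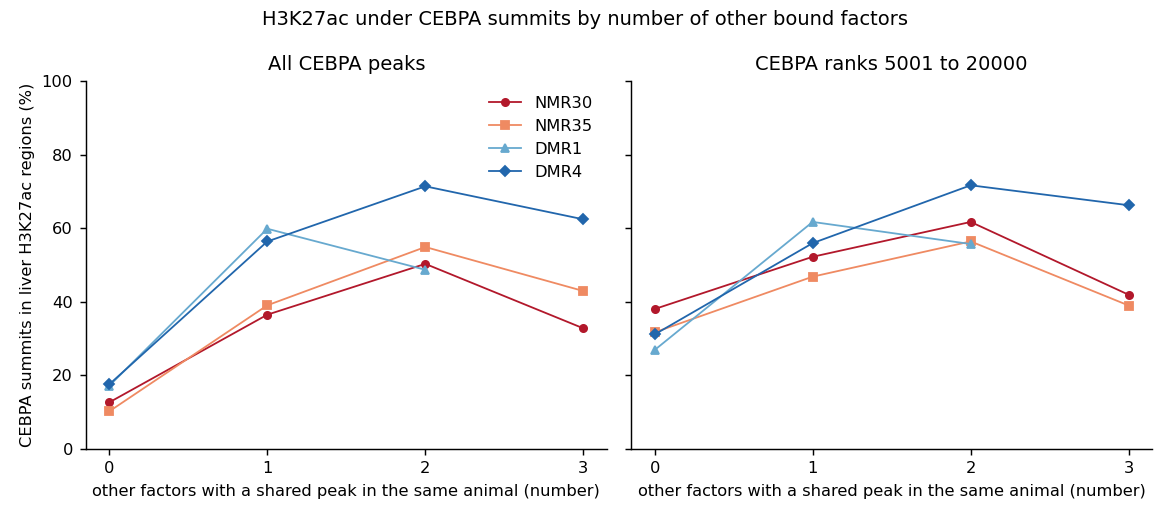
Share of CEBPA summits in liver H3K27ac regions (%) by the number of other factors (FOXA1, RXRA, HNF4A; no HNF4A list in DMR1) with a shared peak in the same animal, for all CEBPA peaks (left) and ranks 5001 to 20000 (right). Each line is 1 library; the last point of each line is lower than the one before it.

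Over whole lists, the share of CEBPA summits in H3K27ac regions was below that of RXRA and above that of HNF4A in every animal compared. Against FOXA1 it was higher in 2 of 4 animals. No difference passed 0.05. The CEBPA mean was 23.9 ± 8.41% (SD, n = 4). FOXA1 had 24.6 ± 8.75% (n = 4), a difference of -0.75 percentage points with an adjusted exact permutation p of 0.943. RXRA had 38.9 ± 13.8% (n = 4), a difference of -15.1 percentage points, with CEBPA lower in 4 of 4 animals, an adjusted exact permutation p of 0.343 and an unadjusted p of 0.114. HNF4A had 17.5 ± 12.6% (n = 3), 6.40 percentage points under CEBPA, with CEBPA higher in 3 of 3 animals and an adjusted exact permutation p of 0.686. The tests were two-sided and did not pair libraries of the same animal, with 3 comparisons adjusted by the Benjamini-Hochberg method. The CEBPA mean includes DMR1, which has no HNF4A list. With lists of equal length, CEBPA exceeded FOXA1 by 13.7 percentage points (adjusted exact permutation p = 0.0857), the RXRA difference was -5.42 (adjusted exact permutation p = 0.629) and the HNF4A difference 11.7 (adjusted exact permutation p = 0.471). Among the 19000 strongest peaks, CEBPA was above RXRA in NMR30 (45.1% against 36.3%) and below HNF4A in DMR4 (55.0% against 59.2%), unlike over whole lists. The HNF4A difference was 2.77 without DMR4 and 2.72 with the H3K27ac peaks of the same animal alone.

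Individual regions show the range of these classes. A class was set by regions found in at least 2 animals, so the peaks that cover a summit itself can come from fewer livers. In each class, the regions found in both animals with the lowest sum of ranks are given, with positions counted from 1 on the naked mole-rat assembly HetGla_1.0 or the Damaraland assembly DMR_v1.0. Genes and sequences at these positions were not analysed here.

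The strongest naked mole-rat region, JH170919.1:28642-29135, was first in both lists, with a fold of 4487 in NMR30 and 1584 in NMR35. Its summit lay in no liver mark region found in 2 animals and in an H3K27ac peak of 1 of 5 livers, and it was shared with all 3 other factors in both animals. The leading promoter, JH172194.1:216010-216597, was second in both lists, with folds of 928 and 309. H3K27ac covered its summit in 5 of 5 livers, with folds from 9.90 to 21.8, and H3K4me3 in 4 of 5.

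The leading naked mole-rat active enhancers had lower folds than the leading promoter. JH169003.1:744734-745914 ranked 13 in NMR30 and 8 in NMR35, with folds of 161 and 132. Its summit lay in H3K4me1 peaks of 5 of 5 livers (fold 11.8 to 30.3) and in H3K27ac peaks of 4 of 5 (23.3 to 57.6). JH170644.1:805304-806577 ranked 7 and 16, with folds of 189 and 80.5, and had H3K27ac over the summit in 3 of 5 livers and H3K4me1 in 2 of 5. The leading primed enhancers were JH171780.1:189096-190174, ranked 4 and 5 with folds of 168 and 127, and JH204765.1:385323-386647, ranked 6 and 7 with folds of 155 and 83.2. H3K4me1 covered the summit in 1 of 5 livers in the first and 4 of 5 in the second. No H3K27ac peak of any of the 5 livers held either summit.

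The second promoter, JH174064.1:1952108-1953003, ranked 9 and 10 with folds of 183 and 129, with H3K4me3 over the summit in 3 of 5 livers and H3K27ac in 1 of 5. The second unmarked region, JH172833.1:257089-258147, ranked 3 and 9 with folds of 304 and 107. It too was shared with all 3 other factors in both animals.

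In the Damaraland mole-rat the first and second ranks were unmarked regions. KN124264.1:3064-4374 was first in both lists, with folds of 236 in DMR1 and 127 in DMR4, and KN121233.1:8135-9161 was second in both, with folds of 139 and 77.7. No peak on the first scaffold ended past base 4431. The named marked regions ranked far lower in DMR1 than in DMR4. The leading promoter, KN121628.1:31596-32526, ranked 47 and 12 with folds of 17.3 and 66.2, and H3K27ac covered its summit in 5 of 5 livers, with folds from 15.8 to 106. The second promoter, KN121257.1:1-986, starts at the first base of its scaffold and ranked 69 and 23, with H3K27ac over its summit in 5 of 5 livers.

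The Damaraland active enhancers were KN122030.1:1596-2471, ranked 46 and 8 with folds of 18.0 and 88.7, and KN122626.1:415-2500, ranked 48 and 13 with folds of 20.0 and 68.5. H3K27ac covered the summit in 5 of 5 livers in the first (fold 6.00 to 9.53) and in 2 of 5 in the second (1.63 to 2.60), and H3K4me1 in 1 of 5 in each. The primed enhancers were KN124588.1:2284-4641, ranked 146 and 55, and KN124295.1:489-1330, ranked 189 and 71. Their folds were 4.95 and 4.13 in DMR1 and 17.5 and 14.5 in DMR4, and H3K4me1 covered the summit in 5 of 5 and 3 of 5 livers. All 8 named Damaraland regions were shared with every other factor compared in both animals. Besides KN124264.1, the scaffolds KN121257.1, KN122030.1, KN122626.1 and KN124588.1 were short, with no peak ending past base 3769, 4954, 3301 and 4809. None of the 8 scaffolds reached 1 Mb, and the longest reach was 355176 bases on KN124295.1. Of the 8 naked mole-rat regions, 3 were shared with all 3 factors in both.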

How the data were processed

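Peak lists of 4 CEBPA libraries, and of histone and other factor libraries of the same 2 species, were analysed. The aligner is not given in the sources used here, and MACS2 is named without a version in the submitters' processing notes. The authors deposited 1 list per library, called against a named input, with a linear ratio (fold over input) and −log10 p-values and q-values per peak. The lowest −log10 q was 1.30. Depth is unknown, so precision is that of the peak numbers. The name of the DMR1 list carries another number than the other 3, which the labels do not explain; values without DMR1 are among the alternatives.

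Everything else was computed with Python 3.11.15, NumPy 2.4.6, pandas 2.3.3, SciPy 1.17.1 and Matplotlib 3.10.9. Peaks were ranked by −log10 p-value, ties by fold. Interval functions were tested on simulated data. Species were compared with two-sided exact permutation tests over libraries, factors likewise, deciles with an exact sign-flip test. Alternatives were a −log10 q of at least 4, equal list lengths, scaffolds reaching 1 Mb or 10 kb, other mark definitions, and leaving out each library. Factor libraries of 1 animal are paired because they come from that animal. Named regions were those found in both animals with the lowest rank sum, 2 per class of marks and species. A planned search for the CEBP motif and gene assignment were not run, since no genome of these builds was used here. The members and lists were chosen with earlier results of these data known. Replicates are separate animals.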

Additional observations from a re-analysis of the deposited data

Results flagged for a closer look

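The share of CEBPA summits in H3K4me3 regions moved in opposite directions in the 2 species between the second and the strongest decile. From the second to the strongest decile it was higher by 2.09 percentage points in NMR30 and 2.12 in NMR35. In DMR1 the change was -1.84 and in DMR4 -0.91. Both animals of a species moved the same way, and the difference between the species was not tested. Among 6 such contrasts, this was the only 1 with opposite directions. In the strongest decile, 11.2% of DMR1 peaks and 2.87% of DMR4 peaks lay on short scaffolds, against 0.54% in NMR30 and 0.83% in NMR35; the part of this in the H3K4me3 values was not tested. In 20 sets of 5 values, the share or median distance of CEBPA summits over 5 histone lists, no end value was separated by a gap above 0.71 of the range, Dixon's 95% critical value. The NMR30 H3K4me3 list gave the shortest distances, 2959 bases for NMR30 and 3014 for NMR35 summits, against at least 24865 and 23864 with the other 4 lists, without passing that value.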

How the results depend on the processing

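Of 118 values computed under other settings for 12 results, 99 kept their direction and their side of the threshold, and 19 turned their direction. No result passed a threshold of 0.05 under any of them, and the smallest p was 0.0857. With 2 against 2 libraries no smaller exact permutation p than 0.333 exists, so these labels say nothing about stability of a call.

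With lists cut to 41372 peaks, the species difference turned to 14.3 percentage points for replicate overlap, 0.36 for the log2 ratio of width, 0.048 for fold and -0.55 for distance to H3K27ac, and CEBPA minus FOXA1 (lists cut to the shortest compared) to 13.7 percentage points. The Jaccard index turned overlap to 2.51. Width turned to 0.0088 with a −log10 q of at least 4, and fold to 0.59 among the strongest 1000 peaks. The H3K4me3 difference turned to -0.35 on scaffolds reaching 1 Mb, -0.42 within 500 bases of a region, -0.15 without the NMR30 H3K4me3 list and -0.070 on scaffolds reaching 10 kb, the last chosen after seeing the data. Why these turned was not tested.

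Leaving out 1 library in turn gave log2 ratios from -0.20 to 0.16 for width (positive without NMR30 or DMR4) and from -0.40 to 0.051 for fold (positive without DMR4). H3K4me3 shares differed by -1.38 to 1.40 percentage points (negative without NMR35 or DMR1), and CEBPA minus FOXA1 by -4.38 to 1.84 (positive without NMR30 or NMR35). Without DMR1, the only list with another name tag, the H3K27ac difference was -17.4 percentage points and the H3K4me1 difference -22.2.

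With the animal as a replicate block, pairing libraries of the same animal, CEBPA differed by -0.75 percentage points from FOXA1, -15.1 from RXRA and 5.65 from HNF4A. The adjusted exact sign-flip permutation p was 0.75, 0.375 and 0.375. Before adjustment, the sign-flip p was 0.125 for RXRA, the smallest that 4 animals allow. For HNF4A it was 0.25, the smallest that 3 animals allow. No call could change with so few animals, so this test cannot decide whether CEBPA differs from the other factors. A consensus of at least 3 animals could not be made for Damaraland H3K4me3, which has 2 libraries.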
